A study of Mus musculus with 15 samples.

Results

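Rearrangements that used any of 13 V genes of the mouse T cell receptor (TCR) β locus were collected from the sorted CD8+ T cells of 5 tumor-bearing mice. The V genes were Trbv6, Trbv7, Trbv8, Trbv9, Trbv10, Trbv11, Trbv12-3, Trbv18, Trbv21, Trbv22, Trbv25, Trbv27 and Trbv28, named TCRBV06-01, TCRBV07-01, TCRBV08-01, TCRBV09-01, TCRBV10-01, TCRBV11-01, TCRBV12-03, TCRBV18-01, TCRBV21-01, TCRBV22-01, TCRBV25-01, TCRBV27-01 and TCRBV28-01 in the data. Every listed rearrangement with one of them was taken, whatever its reading frame. They made up 365 of the 29992 rearrangements of the 15 samples, or 339 distinct sequences, and carried 2255 of 95511 templates. A template is one genome estimated to carry a rearrangement, and a rearrangement is a distinct 87-base sequence of a sample. The genes had been grouped as pseudogenes, and for 12 of the 13 this matched both the GENCODE and the RefSeq annotation. Trbv21 is listed as a V gene by both, so the group is called here the 13 V genes. The sequences bore out the V calls, since all 365 matched their own V gene on chromosome 6 of GRCm38 better than any of the other V genes, over a median of 58 bases.

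The samples came from female C57BL/6 mice, bought at 6 weeks of age, that carried B16F10GP melanoma, a line that expresses the glycoprotein of lymphocytic choriomeningitis virus and a green fluorescent protein. Cells were injected into the right flank on day 0 (tumor 1) and into the left flank on day 3 (tumor 2), and tissues were taken on day 19. The tumor-draining lymph node (TdLN), tumor 1 and tumor 2 gave 5 samples each, all from untreated control mice, and no treated group was analysed here. The paper states that its TdLN came from the tumor 1 side, so tumor 2 lay on the opposite flank. CD8+ PD-1+ CD44+ T cells were sorted and their genomic DNA was amplified by a multiplex V and J gene PCR assay, immunoSEQ. The sample labels name B16F10GP as the cell type although the titles describe sorted T cells, and DNA of rearranged receptor genes holds no other marker by which the sort could be checked. Templates per sample ranged from 4909 to 13848 in the TdLN, 5382 to 7946 in tumor 1 and 338 to 5401 in tumor 2. Distinct rearrangements with a V gene numbered 2083 to 9142 in the TdLN, 361 to 684 in tumor 1 and 103 to 974 in tumor 2. The library of tumor 2 of mouse 1 shared sequences across mice. Of its 585 rearrangements 47.2% were also found in samples of mouse 2, with 89.5% of its templates. In the other samples of mouse 1 32.6% were found, with 60.2% of its templates. Samples of mouse 3 held 19.7%, with 52.8% of its templates. Mice 4 and 5 held 1.03% and 1.37%, with 11.9% and 11.2% of its templates. The main tumor 2 results are therefore also given without this library or without mouse 1. Tumor 2 of mouse 3 shared little with the TdLN of that mouse. Of its 185 non-productive rearrangements of V genes outside the set, 1 (0.541%) was found there, against 40% for tumor 1 of that mouse. For tumor 2 of the other mice it was 4.89% to 22%. The cause was not tested, and tumor 2 of mouse 3 was not left out on its own.

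A β chain gene is assembled in each T cell by joining a V, a D and a J segment. The RAG recombinase cuts beside a recombination signal, made of a heptamer, a spacer and a nonamer, and bases are trimmed from and added to the ends before they are joined. A V pseudogene can still be cut and joined where its signal works, but the product cannot give a receptor, so a T cell that carries one must have made its receptor from the other allele. Because DNA and not RNA was sequenced, such silent second alleles are seen beside the productive one, at a similar number of templates where both are amplified alike.

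The ends of the V genes and their signals are shown because they precede every join described below. For each, the last 30 bases of the V gene stand in lower case, the spacer follows in lower case, and capitals mark the heptamer and the nonamer. The search compared letters on the coding strand only, within 6 bases of the annotated V end and with spacers of 22 to 24 bases, against the consensus heptamer CACAGTG and the consensus nonamer. The first 3 genes held most of the set's ordinary rearrangements and the others held few or none.
Trbv21, chr6:41203015-41203082: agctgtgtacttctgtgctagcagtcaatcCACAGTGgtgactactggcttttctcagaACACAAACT
Trbv22, chr6:41212505-41212573: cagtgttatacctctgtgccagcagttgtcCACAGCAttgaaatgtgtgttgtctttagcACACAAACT
Trbv10, chr6:41092199-41092267: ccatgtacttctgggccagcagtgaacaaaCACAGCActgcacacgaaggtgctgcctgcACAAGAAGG
Trbv6, chr6:41067125-41067193: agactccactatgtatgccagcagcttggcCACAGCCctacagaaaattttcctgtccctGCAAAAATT
Trbv11, chr6:41107274-41107341: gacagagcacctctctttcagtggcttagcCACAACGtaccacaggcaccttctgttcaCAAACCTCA
Trbv12-3, chr6:41128047-41128116: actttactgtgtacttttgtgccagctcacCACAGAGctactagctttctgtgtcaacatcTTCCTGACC
Trbv18, chr6:41175579-41175646: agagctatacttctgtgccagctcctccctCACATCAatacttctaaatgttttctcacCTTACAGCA

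Trbv21 was the only gene of the 13 with all 7 consensus letters in its heptamer, as had 7 of the other 22 V genes. Trbv22 matched 5 heptamer and 7 nonamer letters and Trbv10 matched 5 and 6. Trbv11, Trbv12-3 and Trbv18 matched 3 of the 9 nonamer letters, whereas each of the other 22 V genes matched at least 5. For Trbv25 and Trbv27 no heptamer opening with the letters CAC stood in the window searched. Trbv6 matched 5 and 6 letters, and Trbv7 matched 5 and 8, so letter matches alone did not sort the genes by how often they were seen. These matches describe letters in the window and not the activity of a signal.

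Trbv22 and Trbv21 dominated the set and the other genes were rare. Trbv22 had 141 rearrangements with 1963 templates, Trbv21 had 89 with 135 and Trbv27 had 54 with 66. Trbv10 had 16 rearrangements, Trbv6 13, Trbv18 11, Trbv12-3 and Trbv25 10 each, Trbv9 7, Trbv11 5, Trbv7 4, Trbv28 3 and Trbv8 2. The TdLN held 210 of them, tumor 1 89 and tumor 2 66. A single template was the evidence for 267 of the 365 (73.2%), against 75.5% of the non-productive rearrangements of the other V genes, and 7 had 10 templates or more. The 73.2% joins kinds of rearrangement, described below, that differed in this share. The files called 253 out of frame, 106 in frame and 6 with a stop codon, so 29.04% (95% Wilson interval 24.6% to 33.9%) were in frame, against 62.5% for the other V genes. The call in frame refers to the bases read and not to the rest of the V gene.

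The rearrangements fell into separate kinds by how many bases were missing from the 3′ end of the V gene. In 236 of them 0 to 8 bases were missing, with a median of 2, and in 129 there were 11 to 47 missing. None lay at 9 or 10 bases, where the other V genes had 169 rearrangements. Of the 129, 73 lacked exactly 19 bases and 21 lacked 18. These long-trimmed rearrangements were 35.3% of the 13 V genes' total but 2.47% of that of the other 22 V genes, and 5.03% of the latter's non-productive part. The limit of 11 bases was set after this distribution had been seen. Just inside it were 5 rearrangements that lacked 11 bases, and just outside 4 that lacked 8.

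**Figure D1:**
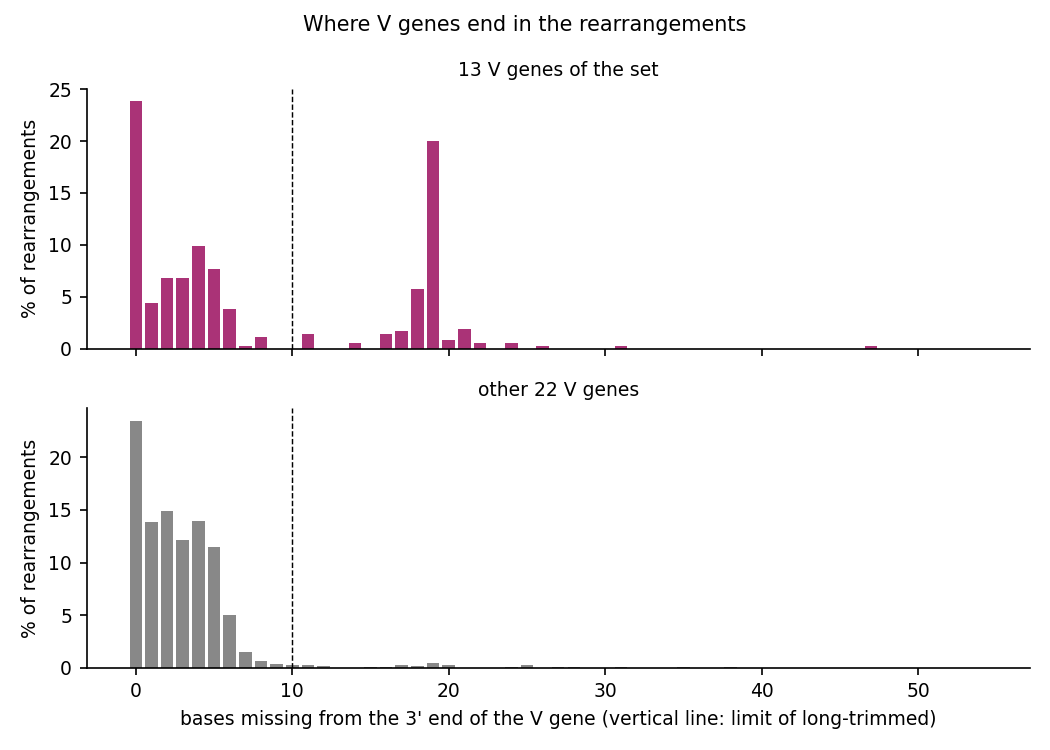
Distribution of the number of bases missing from the 3′ end of the V gene, as a percentage of the rearrangements of the 13 V genes (top) and of the other 22 V genes (bottom), all samples pooled. The 13 V genes show a second peak at 19 bases that is small among the other V genes, and the dashed line marks the limit above which a rearrangement is called long-trimmed.

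Trimming divided the set by gene. Every rearrangement of Trbv27 (54 of 54), Trbv6 (13 of 13), Trbv12-3 (10 of 10), Trbv25 (10 of 10), Trbv7 (4 of 4) and Trbv28 (3 of 3) was long-trimmed. So were 6 of 7 of Trbv9, 4 of 5 of Trbv11, 7 of 11 of Trbv18 and 1 of 2 of Trbv8. By contrast 4 of 89 of Trbv21, 9 of 141 of Trbv22 and 4 of 16 of Trbv10 were. A further 35 rearrangements of Trbv22, 7 of them long-trimmed, were near-copies, which differed by 2 to 5 edits from a Trbv22 rearrangement of the same J gene and sample with at least 50 times their templates. Without long-trimmed rearrangements and near-copies, 208 remained, of which 104 used Trbv22, 85 Trbv21, 12 Trbv10, 4 Trbv18 and 1 each Trbv8, Trbv9 and Trbv11.

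These 208 ordinary joins belonged mainly to Trbv21 and Trbv22, which both had them in all 5 mice. Trbv21 and Trbv22 were present in every TdLN, at a mean of 0.376% ± 0.196 and 0.375% ± 0.159 (SD, n = 5) of its distinct rearrangements, and stood at ranks 21 and 22 of the 35 V genes. For Trbv21 the share was 0.299%, 0.321%, 0.706%, 0.363% and 0.189% in mice 1 to 5, and for Trbv22 it was 0.299%, 0.281%, 0.659%, 0.328% and 0.311%. The TdLN of mouse 3 was highest for both, and the order of the pair changed between mice. Their neighbours in the order, Trbv24 at 2.35% above and Trbv23 at 0.335% below, are not among the 13. Trbv10 followed at 0.067% ± 0.046 and was found as an ordinary join in 4 mice, and Trbv9 reached 0.010%. The other 9 genes had none in the TdLN. The limit that 3 rearrangements set in a TdLN was 0.0328% to 0.144% of its distinct rearrangements.

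Few of the ordinary joins were in frame. The in-frame share was 25.9% for Trbv21 (22 of 85, interval 17.8% to 36.1%), 27.9% for Trbv22 (29 of 104, interval 20.2% to 37.2%) and 16.7% for Trbv10 (2 of 12, interval 4.70% to 44.8%). Trbv24, a V gene outside the set that GENCODE but not RefSeq calls a pseudogene, stood at 29.8%. The remaining V genes outside the set lay between 48.7% and 77.2%. The highest of them, Trbv29, is called a pseudogene by RefSeq but not by GENCODE. Trbv21, although annotated as a V gene, thus stood with Trbv22 and Trbv10 and below all V genes outside the set by this measure, its interval overlapping that of Trbv24.

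**Figure D2:**
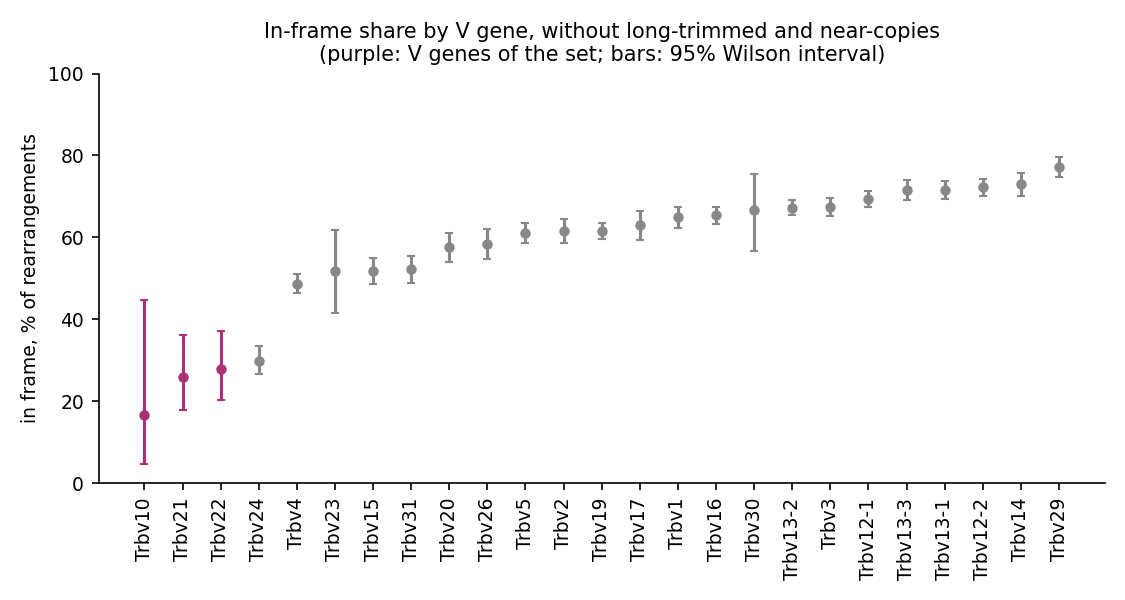
In-frame share of the distinct rearrangements of each V gene with at least 10 rearrangements left, without long-trimmed rearrangements and near-copies, all samples pooled, with 95% Wilson intervals that cover counting error only. Trbv10, Trbv21 and Trbv22 (purple) and Trbv24 lie at 16.7% to 29.8%, below the other V genes at 48.7% to 77.2%.

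Junctions of the ordinary joins were similar in insertions, length and V trimming to those of other V genes in the same lymph nodes. Non-productive ordinary joins of the 13 V genes, counted per TdLN, had a mean of 3.93 ± 0.613 N insertions (bases added without template). Their CDR3 had 43.1 ± 0.761 bases and 2.65 ± 0.658 bases were trimmed from V (SD, n = 5 mice). Non-productive ordinary joins of the other V genes had 4.07 ± 0.260 insertions, 42.7 ± 0.277 bases and 2.56 ± 0.108 bases. No D gene could be called in 21.7% ± 14.4 of the former, against 14.5% ± 1.99 of the latter. Rearrangements of a single template were 58.2% ± 10.1 of the former and 74.5% ± 4.20 of the latter. For N insertions, CDR3 length, V trimming and D calls the difference was smaller than the SD over mice of the 13 V genes, and for single templates it was larger. None of these was tested. J genes were used broadly, with 12 of the 14 J genes seen.

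Long-trimmed rearrangements had other junctions. Setting aside the near-copies, 122 were left, of which 108 had a single template and none more than 3. They carried a mean of 16.05 N insertions against 4.35 in the 208 ordinary joins, no D gene could be called in 52.5% against 17.3%, and the median CDR3 was 37 bases against 43. Where the genes other than Trbv27 were used, the J gene was Trbj1-1 in 27 and Trbj2-2 in 37 of 68 rearrangements, or 94.1% (interval 85.8% to 97.7%). Among the ordinary joins that pair of J genes made up 17.3%. At these low counts all values are pooled over samples and describe the set rather than a tissue.

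Many long-trimmed rearrangements of different mice ended alike. Of the 122, 66 (54.1%, interval 45.3% to 62.7%) shared their last 28 bases, which reach into J, with a different sequence of the same V and J gene in another mouse. This was so for 2 of the 208 ordinary joins (0.962%), for 27.04% of the 503 long-trimmed rearrangements of the other V genes and for 1.67% of those V genes' 10226 ordinary non-productive joins. Trbv6 with Trbj2-2 shows the pattern. Of its 10 rearrangements 9, from 4 mice, had the same last 29 bases, printed here in capitals for a rearrangement of each of these mice, with 1 template each. Between the shared V part and the shared end stood bases that differed between the mice.
Trbv6, TdLN of mouse 1: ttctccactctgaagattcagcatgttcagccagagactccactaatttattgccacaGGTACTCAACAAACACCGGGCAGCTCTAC
Trbv6, tumor 2 of mouse 3: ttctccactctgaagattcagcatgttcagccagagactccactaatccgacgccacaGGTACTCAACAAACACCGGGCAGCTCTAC
Trbv6, TdLN of mouse 4: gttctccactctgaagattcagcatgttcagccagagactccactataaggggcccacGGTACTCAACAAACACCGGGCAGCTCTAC
Trbv6, tumor 2 of mouse 5: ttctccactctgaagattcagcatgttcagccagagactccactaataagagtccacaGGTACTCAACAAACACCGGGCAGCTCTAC
Assays of this kind add synthetic V and J molecules to calibrate the PCR. Whether the long-trimmed rearrangements derive from such molecules was not tested.

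Trbv27 differed from the other long-trimmed genes in its J genes. Its 54 rearrangements, 53 of them distinct, used 13 J genes, and Trbj1-1 and Trbj2-2 together made up 6 (11.1%). Trbj2-6, annotated as a J pseudogene, was used in 6 and Trbj1-7 in 4, together 18.5% (interval 10.4% to 30.8%). Among ordinary non-productive joins of the other V genes those J genes were called in 22 of 10226 (0.215%), Trbj2-6 in 1. In the 208 ordinary joins of the 13 V genes and in the other 68 long-trimmed rearrangements they were called in 0, with upper Wilson limits of 1.81% and 5.35%. Of the 54, 48 lacked 18 or 19 bases of V.

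The 13 V genes took a larger share of the distinct rearrangements of the tumors than of the TdLN, and long-trimmed rearrangements carried that difference. The share was 1.01%, 1.14%, 1.87%, 0.825% and 0.525% in the TdLN of mice 1 to 5. It was 2.70%, 7.12%, 3.32%, 1.90% and 1.51% in tumor 1, and 1.71%, 3.11%, 3.85%, 2.91% and 1.75% in tumor 2. In every mouse both tumors were above the TdLN, while the groups overlapped across mice. The TdLN had a mean of 1.07% ± 0.501, tumor 1 of 3.31% ± 2.24 and tumor 2 of 2.66% ± 0.923 (SD, n = 5). Tumor 1 exceeded the TdLN by 2.24 percentage points (two-sided exact permutation test, p = 0.0159) and tumor 2 by 1.59 (p = 0.0238), where 5 against 5 samples cannot give a p below 0.00794. Both tests share the same TdLN samples. With the mouse as a block both gave an exact sign-flip p of 0.0625, the smallest 5 mice allow, and among rearrangements of at least 2 templates the differences were 0.674 (exact permutation p = 0.444) and 0.564 points (p = 0.325). Sample names are written in 2 styles, and in mice 1 to 3 and mice 4 and 5 taken separately the difference was 3.04 and 1.03 points for tumor 1 and 1.55 and 1.65 for tumor 2. Without tumor 2 of mouse 1 the second difference was 1.83 points (exact permutation p = 0.0159).

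Without long-trimmed rearrangements the difference was 0.643 points for tumor 1 (exact permutation p = 0.730, higher in 2 of 5 mice) and 0.0210 for tumor 2 (exact permutation p = 0.968). Without near-copies as well, the ordinary joins made up 0.698%, 0.721%, 1.46%, 0.762% and 0.499% in the TdLN, 0.597%, 1.79%, 1.74%, 0.194% and 0.405% in tumor 1 and 1.21%, 0.890%, 0.778%, 0% and 0.461% in tumor 2. The tissues then overlapped throughout, with a difference of 0.116 points for tumor 1 (exact permutation p = 0.825) and of -0.160 for tumor 2 (p = 0.563). Without mouse 2 that for tumor 1 was -0.122 (exact permutation p = 0.686). In tumor 2 of mouse 4, which had 103 rearrangements, none was an ordinary join, where 3 would be 2.91%.

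**Figure D3:**
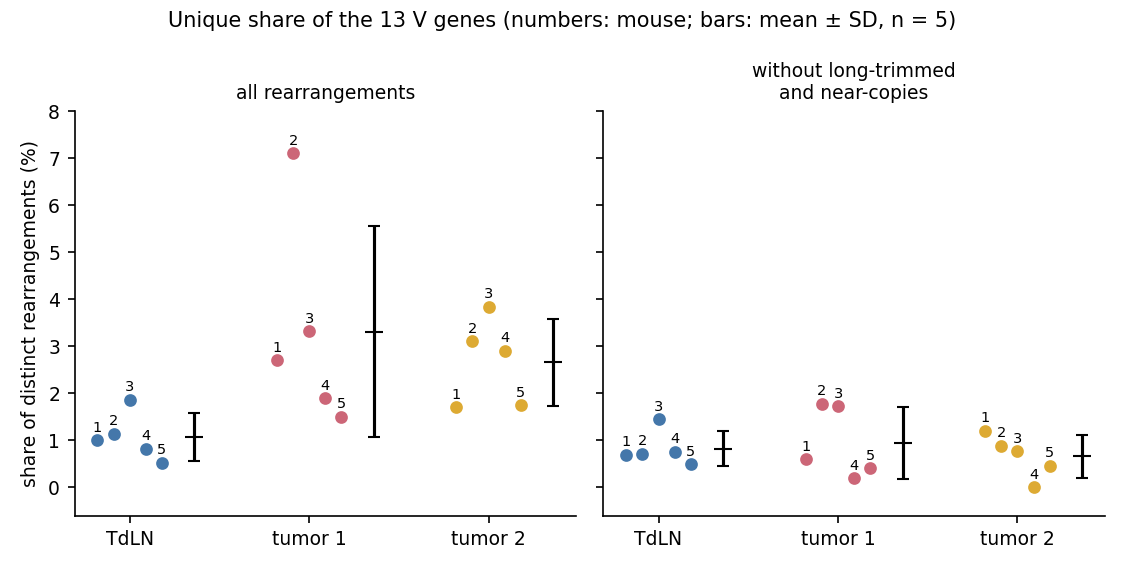
Share of the 13 V genes among the distinct rearrangements of each sample (percent), with points numbered by mouse and bars for mean ± SD over 5 mice, for all rearrangements (left) and without long-trimmed rearrangements and near-copies (right). Means are 1.07%, 3.31% and 2.66% on the left, where both tumors of each mouse lie above its TdLN, and on the right the tissues overlap.

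The number of long-trimmed rearrangements of the 13 V genes did not follow the diversity of the sample. It was 7, 9, 10, 6 and 3 in the TdLN, 10, 17, 7, 12 and 7 in tumor 1 and 3, 9, 13, 3 and 13 in tumor 2 of mice 1 to 5. The TdLN of mouse 5, with 9142 distinct rearrangements, held 3, as did tumor 2 of mouse 4 with 103. Ordinary joins numbered 14, 18, 31, 65 and 45 in the TdLN, 2, 8, 5, 1 and 2 in tumor 1 and 6, 5, 2, 0 and 4 in tumor 2, so all TdLN were above all tumors. The long-trimmed rearrangements were therefore a larger percentage of the tumor samples, which held fewer distinct rearrangements. A larger percentage in the tumors was not particular to the 13 V genes. The other 22 V genes had 288 long-trimmed rearrangements of 24349 in the TdLN, 231 of 2600 in tumor 1 and 212 of 2662 in tumor 2. In the TdLN of mice 1 to 5 these numbered 42, 23, 32, 67 and 124, highest in the most diverse nodes, those of mice 4 and 5.

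**Figure D4:**
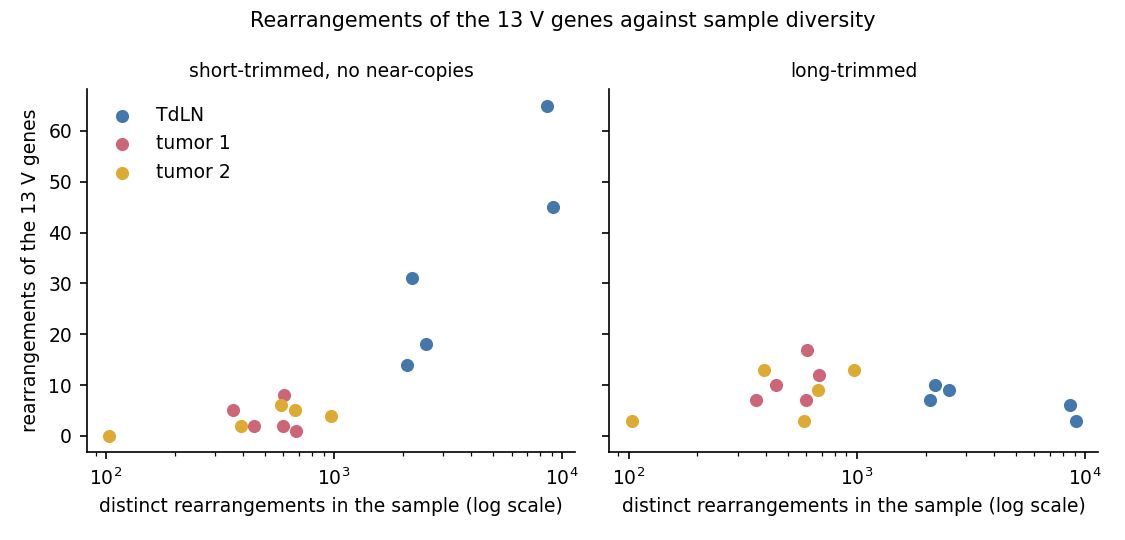
Number of rearrangements of the 13 V genes in each of the 15 samples against the sample's distinct rearrangements (log scale), for ordinary joins (left) and long-trimmed rearrangements (right). Ordinary joins number 0 to 8 in tumors and 14 to 65 in the more diverse TdLN, whereas long-trimmed ones number 3 to 17 across samples of 103 to 9142 rearrangements.

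Gene by gene, Trbv27 and Trbv6 were called higher in share of distinct rearrangements in tumor 1, and Trbv27 in tumor 2. Trbv27 had 4, 2, 1, 2 and 2 rearrangements in the TdLN, 3, 10, 2, 5 and 4 in tumor 1 and 3, 2, 6, 2 and 6 in tumor 2 of mice 1 to 5. The TdLN had a mean Trbv27 share of 0.0723% ± 0.0708, tumor 1 of 0.857% ± 0.451 and tumor 2 of 0.981% ± 0.717 (SD, n = 5). The counts overlapped between tissues and the shares did not. edgeR's quasi-likelihood test gave a log2 fold change of 4.02 (SE 0.65, adjusted p = 0.000667) for tumor 1 and of 3.82 (SE 0.72, adjusted p = 0.000880) for tumor 2. Trbv6 had 1, 0, 1, 1 and 1 rearrangements in the TdLN and 1, 2, 1, 1 and 1 in tumor 1, with an edgeR log2 fold change of 3.40 (SE 0.80, adjusted p = 0.00759). In all, Trbv6 had 4 in the TdLN and 6 in tumor 1. These folds compare shares. The distinct rearrangements they are set against numbered 2083 to 9142 in the TdLN, 361 to 684 in tumor 1 and 103 to 974 in tumor 2. Counts of long-trimmed rearrangements did not follow this diversity, so a higher share need not mean more of them. How much of each fold reflects diversity was not tested. Of the 28 V genes tested for tumor 1 10.7% were called higher, and of the 26 tested for tumor 2 7.69% were.

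Those were 2 of the 6 genes of the set that had enough rearrangements to be tested for tumor 1 and 1 of 4 for tumor 2. Since Trbv27 and Trbv6 had no ordinary join, both calls rest on long-trimmed rearrangements, and without these edgeR called 0 genes of the set in either tumor, with 1 at an unadjusted p below 0.05 for tumor 1 and 0 for tumor 2. With the mouse as a block edgeR called Trbv27 but not Trbv6 for tumor 1, where 7.14% of the V genes were called. Trbv27 was likewise the only gene of the set called for tumor 1 when any 1 mouse was left out, and it was called for tumor 2 without mouse 1. Over all its rearrangements Trbv22 had an edgeR log2 fold change of 1.70 (adjusted p = 0.113) in tumor 1 and 1.18 (adjusted p = 0.151) in tumor 2, and over its ordinary joins alone of 0.73 (adjusted p = 0.491) and 0.20 (0.925). Trbv21 gave -0.91 (edgeR adjusted p = 0.473) and -0.85 (0.510), and over ordinary joins -0.74 (0.657) and -0.85 (0.573). Trbv10 gave -0.61 (edgeR adjusted p = 0.760) and 0.40 (0.791), but its 12 ordinary joins all lay in the TdLN, so that no fold can be given for them. Trbv12-3, which had 4 of its 6 tumor 1 rearrangements in mouse 1, stood at 3.39 (edgeR adjusted p = 0.0813). An exact permutation test of the share per gene, adjusted over all V genes, called none of the 13, with 2 and 1 of them below an unadjusted 0.05 and Trbv27 at an adjusted p of 0.0556 and 0.0516 for tumor 1 and tumor 2. DESeq2 called Trbv12-3 as well in tumor 1.

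Counted in templates rather than in distinct rearrangements, the 13 V genes were ruled by 1 clone of mouse 2. Their template share was 0.709%, 2.77%, 1.12%, 0.821% and 0.477% in the TdLN, 0.479%, 14.6%, 0.234%, 0.189% and 0.427% in tumor 1 and 1.90%, 8.91%, 0.341%, 1.18% and 0.754% in tumor 2 of mice 1 to 5. Mouse 2 was highest in each tissue. The difference was 2.01 points for tumor 1 (exact permutation p = 0.992, higher in 1 of 5 mice) and 1.44 for tumor 2 (exact permutation p = 0.611, and 1.62 without tumor 2 of mouse 1), neither beyond the spread between mice. Without the largest rearrangement of each sample the differences were -0.403 and -0.265 (exact permutation p = 0.0714 each), and without mouse 2 that for tumor 1 was -0.449 (exact permutation p = 0.0571).

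The clone was an out-of-frame join of Trbv22 to Trbj1-5 without any base trimmed from V. In mouse 2 the TdLN held 96 of its templates, tumor 1 held 1081 and tumor 2 held 453, or 1.96%, 13.8% and 8.39% of the templates of these samples. Another 80 (1.64%) were listed in tumor 2 of mouse 1, the library that shares sequences with mouse 2, and it was in no other sample. Its 1710 templates were 75.8% of all templates of the 13 V genes, which leaves 545. In that mouse a productive join of Trbv1 to Trbj1-5 had nearly the same number of templates in each tissue, with 113, 1158 and 498, and 90 in tumor 2 of mouse 1. Both are printed with the bases between the V part and the J part in capitals. The V part of the first lies at chr6:41212478-41212534 and its J part at chr6:41535085-41535102, and those of the second at chr6:40891821-40891882 and chr6:41535084-41535102 (GRCm38, plus strand).
Trbv22-Trbj1-5, out of frame: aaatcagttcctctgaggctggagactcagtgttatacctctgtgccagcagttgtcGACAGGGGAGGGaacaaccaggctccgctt
Trbv1-Trbj1-5, in frame: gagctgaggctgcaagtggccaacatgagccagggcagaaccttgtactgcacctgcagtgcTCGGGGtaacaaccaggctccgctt

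The 2 joins kept a nearly fixed ratio. The out-of-frame join had 0.850, 0.934 and 0.910 of the templates of the productive one in the TdLN, tumor 1 and tumor 2 of mouse 2, and 0.889 in tumor 2 of mouse 1. Pearson's chi-square of a constant ratio was 0.238 per degree of freedom over the tissues of mouse 2. Only 2 productive rearrangements of mouse 2 had a total from 0.5 to 2 times that of the clone, and the other had a chi-square of 30.4. The chi-square of a ratio needs templates in at least 2 samples, so in mouse 1, where both joins were in tumor 2 alone, it could not be computed for the pair. DNA was taken in bulk from the sorted cells of each sample, so that templates, and not single cells, link the pair. Whether both joins lie in the same cells was not tested.

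**Figure D5:**
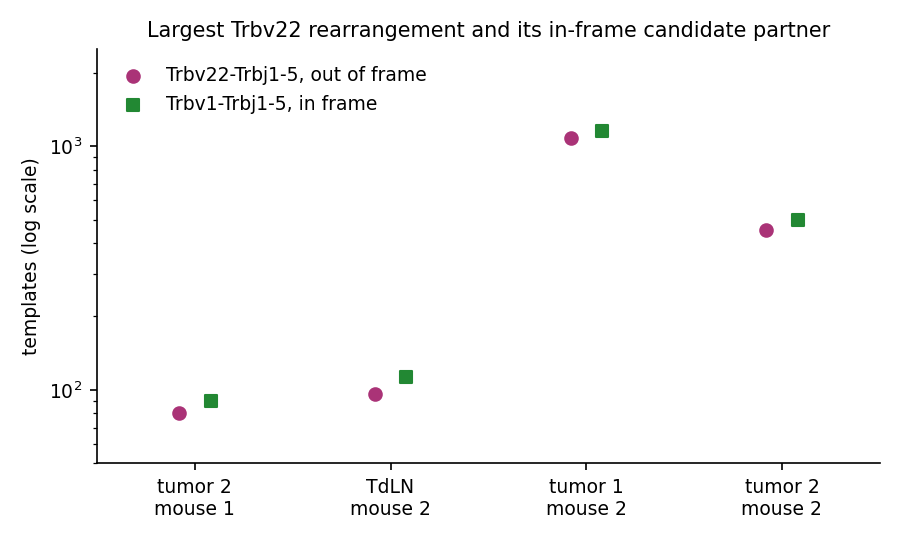
Templates (log scale) of the out-of-frame Trbv22-Trbj1-5 join and of the in-frame Trbv1-Trbj1-5 join in the 4 samples that hold either. The points lie close together in each sample, at ratios of 0.850 to 0.934, over totals from 80 to 1158 templates.

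For the other large rearrangement of the set the partner was not settled. An out-of-frame join of Trbv22 to Trbj2-3 in mouse 1 had 4, 20 and 4 templates (TdLN, tumor 1, tumor 2), and a single template in tumor 2 of mouse 2. Of 50 productive rearrangements of like total 15 had a chi-square per degree of freedom below 3, the lowest, at 0.0710, being a join of Trbv19 to Trbj2-7 with 3, 19 and 3 templates. Of 51 non-productive rearrangements of other V genes that had at least 20 templates in a sample and were found in 2 or 3 samples of a mouse, 44 had at least 1 such candidate and 10 exactly 1, as the clone of mouse 2 had. Another 29 were found in 1 sample, where partners confined to the same sample could not be scored.

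The remaining leading rearrangements of each mouse were small. In mouse 3 it was an out-of-frame Trbv22-Trbj2-4 join with 4 templates in the TdLN and 4 in tumor 1. In mouse 4, out-of-frame joins of Trbv22 and of Trbv21 to Trbj2-7 had 4 templates each in the TdLN. In mouse 5 an in-frame join of Trbv22 to Trbj1-4 had 11 templates, all in tumor 1. Its 87 bases were called productive although Trbv22 is annotated as a pseudogene, and they are shown with the bases between V and J in capitals.
Trbv22-Trbj1-4, in frame, tumor 1 of mouse 5: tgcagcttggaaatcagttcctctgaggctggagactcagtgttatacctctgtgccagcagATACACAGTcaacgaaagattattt

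Near-copies of the clone added rearrangements to the count of Trbv22 but few templates. All 35 near-copies among the 13 V genes were of the Trbv22-Trbj1-5 join, 34 in mouse 2 (21 in tumor 1, 10 in tumor 2 and 3 in the TdLN) and 1 in tumor 2 of mouse 1. Together they had 41 templates, 29 had 1 and none more than 2. The files called 19 of them in frame, so that they made up 19 of the 50 in-frame rearrangements listed for Trbv22. Trbv22 counted 27 rearrangements in tumor 1 and 13 in tumor 2 of mouse 2, against at most 6 in any other tumor. Near-copies were 9.59% of the set and 2.70% of the rearrangements of the other V genes.

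Rearrangements of the 13 V genes found in a tumor were at times also found in the TdLN of the same mouse. Of the 89 in tumor 1 9 were found there, at a mean of 10.2% ± 13.7 per mouse (SD, n = 5), a mean that few of the 120 pairings of TdLN and tumors reached (one-sided exact permutation, p = 0.0167). For tumor 2, on the flank opposite the TdLN, it was 7 of 66, or 9.81% ± 13.98 (exact permutation p = 0.05). Up to 30% per mouse were found in the TdLN of another mouse. Non-productive rearrangements of the other V genes were found in the TdLN at 27.3% ± 13.8 for tumor 1 and 11.8% ± 9.77 for tumor 2. All of the 9 came from mice 1 to 3 (17% per mouse), and mice 4 and 5 had 0. Weighted by templates the mean was 41.3% (exact permutation p = 0.0167), and among rearrangements of at least 2 templates in both samples 30.3% (p = 0.0167). Without mouse 1, 2 or 3 the exact permutation p for tumor 1 was 0.0833. Because mice 4 and 5 had 0 with every TdLN, exchanging them changes nothing. The values 0.0167 and 0.0833 are therefore the smallest p that this test could give, with all mice and without mouse 1, 2 or 3. Weighting by templates and the limit of 2 templates gave 20.5% and 14.7% for tumor 2, whose overlap without mouse 1 was 4.76% (exact permutation p = 0.25). For tumor 2, mice 3, 4 and 5 had 0 with every TdLN, so its p could not fall below 0.05, or 0.25 without mouse 1. Long-trimmed rearrangements were recovered in 1 of 53 cases for tumor 1 and 1 of 41 for tumor 2. The ordinary joins were recovered in 7 of 18 cases for tumor 1, 31% ± 34.4 per mouse (exact permutation p = 0.0167), beside 33.0% ± 15.1 for ordinary non-productive joins of the other V genes. For tumor 2 it was 5 of 17, 22.5% over the 4 mice with any (exact permutation p = 0.0833), to which mouse 1 gave 3 of its 6.

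Few sequences of the 13 V genes were shared between mice. Of the 339 distinct sequences 5 (1.47%) were found in a pair of mice and 0 in more, against 191 of 10313 (1.85%) for non-productive sequences of the other V genes. All 5 were shared by mice 1 and 2, and 4 of them involved tumor 2 of mouse 1. Of these, the Trbv22-Trbj1-5 clone and the Trbv22-Trbj2-3 join are described above. An in-frame join of Trbv22 to Trbj2-2 had 3, 13 and 5 templates in the TdLN, tumor 1 and tumor 2 of mouse 2 and 2 in tumor 2 of mouse 1, and the last of the 4 was an in-frame near-copy of the clone. The 1 sequence shared without that library was a long-trimmed Trbv27-Trbj1-1 rearrangement with 1 template each in tumor 1 of mouse 1 and the TdLN of mouse 2.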

How the data were processed

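Genomic DNA of sorted CD8+ PD-1+ CD44+ T cells from 15 samples was sequenced by immunoSEQ. The authors deposited, per distinct 87-base rearrangement, a count of templates, which equals the estimated number of genomes in all 29992 rearrangements, and a fraction, which the deposited column heads as a percentage and which was not used. V, D and J calls, trimming, N insertions and reading status were used as deposited. The submitters' processing notes name mm10 (GRCm38), and an aligner is not given in the sources used here. All 15 files name 1 sample each, and 0 columns of other samples were present.

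The members and gene lists were chosen with earlier results of these data known. The unique share of a sample was the percentage of its distinct rearrangements with a V gene (29976 in all, 16 without one left out) that used the 13 V genes, and the template share the same over templates. Shares were compared by two-sided exact permutation tests of group means, and tumor-TdLN overlap by one-sided exact permutation of mouse numbers. Distinct rearrangements per V gene were tested with edgeR 4.0.16 (glmQLFit and glmQLFTest, library size the distinct rearrangements of the sample, no further normalization, at least 10 rearrangements over both groups, Benjamini-Hochberg over all V genes tested, adjusted p below 0.05), with DESeq2 1.42.0 as an alternative. Scripts were tested on simulated data. Second-allele candidates were productive rearrangements of the same mouse with 0.5 to 2 times the total templates of a rearrangement that had at least 20 templates in a sample. All 13 V genes were named, with the rearrangements of at least 50 templates, the largest of each mouse and the 3 found in most mice. Wilson intervals (95%) account for counting error alone, because PCR templates are estimates.

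Samples with the same number come from the same mouse in the study, and the overlap of tumor 1 with the TdLN of its own number was the check of this pairing. In mice 4 and 5 the 13 V genes had 0 overlap and could not check it. There 9.71% and 18.9% of the non-productive rearrangements of the other V genes in tumor 1 were found in the TdLN of the same number. In the TdLN of any other number at most 0% and 3.54% were found. For tumor 2, which lay on the flank opposite the TdLN, the check left the pairing unclear. Alternatives were the largest rearrangement of each sample left out, non-productive rearrangements only, at least 2 templates, rearrangements of another mouse left out, near-copies by their last 40 bases left out, downsampling, ambiguous V calls, normalization, no filter, mouse as a block, sample name styles (mice 1 to 3, and mice 4 and 5) and each mouse left out. Leaving out long-trimmed rearrangements (at least 11 bases missing), near-copies by at most 5 edits and at least 50 times fewer templates, or tumor 2 of mouse 1, was chosen after seeing the data. V, J and signal positions were read from GRCm38 with GENCODE and RefSeq annotation. Python 3.11.15, numpy 2.4.6, pandas 2.3.3, scipy 1.17.1, matplotlib 3.10.9 and R 4.3.3 served throughout. Single-cell data were not analysed here.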

Additional observations from a re-analysis of the deposited data

Results flagged for a closer look

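In 5 instances a sample stood far from the other mice of its tissue, by Dixon's test in 21 groups of 5 samples, where chance alone marks about 1 in 20 groups. The template share of the 13 V genes in mouse 2 was 2.77% in the TdLN, where the next mouse had 1.12%. In tumor 1 of mouse 2 it was 14.6%, with the next at 0.479%, and in tumor 2 it was 8.91%, with the next at 1.90%. All 3 samples hold the Trbv22-Trbj1-5 clone. Without long-trimmed rearrangements and near-copies, the unique share in the TdLN of mouse 3 was 1.46%, with the next at 0.762%. The share of Trbv22 alone in that TdLN was 0.659%, with the next at 0.328%. The causes were not tested.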

How the results depend on the processing

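Of 96 planned settings 4 turned the sign of a result, all of them for the template share. Overlaps and counts of genes called cannot be negative, so their settings, also among the 96, could not turn a sign. The unique share of tumor 1 over the TdLN (2.24 points) was 2.18 (exact permutation p = 0.0556) among non-productive rearrangements, 0.674 with at least 2 templates, 0.643 without long-trimmed rearrangements, 0.116 without near-copies as well and -0.122 when mouse 2 was also left out. Leaving out each mouse gave 1.30 to 2.55, with an exact permutation p of 0.0571 without mouse 1, 2 or 4. With the replicate block (mouse) it was 2.24 with p = 0.0625, the smallest an exact sign flip of 5 mice can give. For tumor 2 (1.59 points) it was 0.564 with at least 2 templates, 0.0210 without long-trimmed rearrangements and -0.160 without near-copies as well, 1.47 to 1.81 over mice left out (exact permutation p = 0.0571 to 0.0857 without mouse 1, 2, 4 or 5), and 1.59 with the replicate block (exact sign-flip p = 0.0625). The template share of tumor 1 (2.01 points) reversed to -0.403 without the largest rearrangement and to -0.341 in mice 4 and 5, and was -0.449 to 2.74 over mice left out, the lowest without mouse 2. That of tumor 2 (1.44 points) reversed to -0.265 without the largest rearrangement, was 1.70 (exact permutation p = 0.0317) without rearrangements found in another mouse and 0.263 to 1.99 over mice left out.

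Overlap of tumor 1 with the TdLN (10.2%) was 7.17% (exact permutation p = 0.05) without rearrangements found in another mouse and 4.41% to 12.7% over mice left out, the lowest without mouse 3 (exact permutation p = 0.0833 without mouse 1, 2 or 3). It was 16.99% in mice 1 to 3 and 0% in mice 4 and 5. With mice 4 and 5 at 0, the test without mouse 1, 2 or 3 could not give a p below 0.0833. That of tumor 2 was 4.76% to 12.3% over mice left out.

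Of the 13 V genes, the 2 called by edgeR for tumor 1 became 1 (Trbv27) with the replicate block, 1 among non-productive rearrangements, 1 to 1 over mice left out (Trbv27 each time), and 0 with at least 2 templates, without long-trimmed rearrangements, without near-copies as well and by exact permutation, where 2 had an unadjusted p below 0.05. For tumor 2 the 1 called became 3 without the filter on low counts, 1 to 2 over mice left out, 1 with the replicate block, and 0 with at least 2 templates, without long-trimmed rearrangements, without near-copies as well and by exact permutation, where 1 had an unadjusted p below 0.05. By exact permutation 1 gene alone cannot be called, since the smallest p of that test, 0.00794, is adjusted over all V genes tested. Where the cause is not given by fewer rearrangements or samples, it was not tested. Ordinary joins numbered 0 to 8 a tumor sample, which limits each comparison of them.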
